A study of Sus scrofa with 9 samples.

Results

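Chemokines are small secreted proteins that direct the movement of white blood cells, and their receptors are G protein-coupled receptors on the cells that follow them. Neutrophils and monocytes are guided mainly through CXCR1, CXCR2, CCR1 and CCR2, and lymphocytes through CXCR3, CCR7, CCR9 and related receptors. In blood most of the ligands are made on demand by activated cells or stored in platelets, while the receptors are carried by the circulating cells themselves.

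The 61 array probes described here are those whose gene name or description marks a chemokine, a chemokine receptor or a chemokine-like protein, among 43603 probes on the array. The name and description rule found 41 of them, and 20 more were added because the array lists their genes under an older name or only by accession, among them every probe of CCL2 and CCL5. They carry 46 names: 24 ligands on 37 probes, 16 signalling or signalling-like receptors on 17 probes, the atypical receptors ACKR1 and ACKR4, 3 members of the chemokine-like factor family on 4 probes, and 1 probe with no assigned gene. For the comparisons, genes were divided by textbook role into those of mainly myeloid cells (neutrophils, monocytes, eosinophils, with platelet chemokines placed here by what they attract) and those of mainly lymphoid cells (T, B and NK cells), with some on no single side.

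RNA was measured in whole blood of male, specific-pathogen-free Clawn miniature pigs given azide by mouth at 300 µg/kg. Azide is a poison of cytochrome c oxidase. Blood was collected before feeding, at 6 h and at 24 h, with 3 arrays at each time. The pigs' age appears in the labels both as 7 months and as 7 weeks. There were no undosed pigs at the later times, so the dose cannot be told apart from feeding, handling or the time of day. Each time may lie on a slide of its own, and in that case slide and time cannot be told apart. Whether equal replicate numbers mark the same animal is not stated, so p-values measure only the spread between these samples, which may be technical.

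Values below are log2 signals relative to the 75th percentile of the same array, and a difference is between group means with the standard error (SE, n = 3 per group) of a limma fit over all 9 arrays. Adjusted p-values are Benjamini-Hochberg values over the 19783 probes tested, and 0.05 was the threshold. Between 39.9% and 56.6% of spots on an array were well above background, and the 75th percentile of the 24 h arrays was brighter, at 6.77 to 7.69 on the log2 scale against 5.79 to 6.56 on the other arrays. Markers of blood cells were measured, with 7 of 12 T cell, 5 of 14 neutrophil, 4 of 10 monocyte and 4 of 7 platelet markers tested, while none of 7 erythroid markers had a named probe.

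The probes of the members that carry the results are shown here by sequence, because the agreement or disagreement of probes for one gene decides how far its value can be read. Each probe is 60 bases long, and the lower-case lines give the whole probe or its first 30 bases as they stand in the scanner files. The capitals mark the 28-base run that is shared by both CCR1 probes (bases 17 to 44 of probe 1 and 12 to 39 of probe 2).
CXCR2: tctaaggctctcttaagctatgagtggccc
CCR1, shared run: TTGCAGGTTGGGATCACTTTCCCAAGAC
CXCR4: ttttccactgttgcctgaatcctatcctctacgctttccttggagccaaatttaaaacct
CCR7: atctctctttttccgctgtcatccgagcca
CCL5: gaaatagagaggtgaggtcagaggttaagg
CXCL8, tested probe: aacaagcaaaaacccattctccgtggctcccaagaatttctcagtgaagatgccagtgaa
CXCL8, other probe: tgactgcaagctttgttatgcagtgctgta
CXCL10, tested probe: ctgagtgggtgctcttcaaaataaaactaa
CXCL10, other probe: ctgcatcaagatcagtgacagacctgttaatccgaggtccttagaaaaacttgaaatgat
The CCR1 probes overlap in sequence and followed each other over the 9 arrays (r = 0.98), so they are 1 measurement made with related probes. The CXCL8 probes share no run longer than 6 bases and had r = 0.72, and the CXCL10 probes, with the same limit of 6 bases, had r = 0.33. These correlations are descriptions over 9 arrays that include the 3 times.

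Of the 61 probes, 36 filled at least 1 time with signals well above background on each of its 3 arrays and were tested, 31 of them on all 9 arrays. A further 18 stayed at background on every array, and 7 cleared it on 1 to 4 arrays without filling a group. Receptors were measurable more often than ligands: 15 of 17 receptor probes (14 of 16 genes) against 16 of 37 ligand probes (13 of 24 genes). Over the array 19783 of 43596 usable probes were tested, a share near that of the ligand probes. None of the 36 tested probes passed the threshold in any comparison by limma. Over all probes 0.0253% passed at 6 h against before feeding, 0% at 24 h against before feeding and 0% at 24 h against 6 h. At an unadjusted p under 0.05 there were 12 member probes (33.3%) at 6 h, against 25.5% of all probes. The corresponding numbers were 7 (19.4%) against 13.9% at 24 h, and 5 (13.9%) against 21.6% between 24 h and 6 h. Directions and sizes below are therefore given as values, without a call for any gene.

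The largest differences among the tested probes of the members were those of neutrophil and monocyte receptors at 6 h, with levels of CXCR2 and CCR1 that were 4.11 to 4.33 times those before feeding. Both CCR1 probes, CXCR2, CCRL2 and CCR2 had all 3 arrays at 6 h above all 3 before feeding, as did 16% of all tested probes. At 24 h the CXCR2 and CCR1 arrays overlapped those before feeding again. Of 5 myeloid receptors tested, all above background on all 9 arrays, 4 had higher values at 6 h, with a median difference of 1.42 against 0.05 over all tested probes.

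CXCR2, the neutrophil receptor for CXCL8 and its relatives, was at 6.37, 7.44 and 7.28 before feeding, at 8.99, 8.62 and 9.81 at 6 h, and at 6.74, 7.82 and 7.51 at 24 h. The 6 h arrays stood apart above both other times. The difference was 2.11 ± 0.42 at 6 h, a 4.31-fold higher level (adjusted p = 0.0691), 0.33 ± 0.42 at 24 h, and -1.78 ± 0.42 between 24 h and 6 h (adjusted p = 0.112), the last -1.0 with arrays centred on spike-in controls.

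CCR1, a receptor for CCL5 and the CCL3 group on monocytes and neutrophils, gave 6.59, 6.57 and 6.27 before feeding on its first probe. The values were 8.05, 7.95 and 9.55 at 6 h, and 6.27, 6.51 and 7.18 at 24 h. The group before feeding was tight, with an SD of 0.18, and the 6 h group had an SD of 0.89, with replicate 3 highest. The difference at 6 h was 2.04 ± 0.43 (adjusted p = 0.0754) and that between 24 h and 6 h was -1.86 ± 0.43, or -1.08 with spike-in centring. The second probe gave 2.11 ± 0.51 (adjusted p = 0.0773) and -1.85 ± 0.51.

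CCRL2, a non-signalling receptor-like protein of activated myeloid cells that binds chemerin, was at 1.54, 1.96 and 1.61 before feeding. It was at 2.92, 2.89 and 3.55 at 6 h and at 2.26, 2.49 and 2.73 at 24 h. The 3 times did not overlap, and 24 h lay between the others. The differences were 1.42 ± 0.29 at 6 h (adjusted p = 0.0699), 0.79 ± 0.29 at 24 h (adjusted p = 0.294) and -0.63 ± 0.29 between 24 h and 6 h, the last with the opposite sign, 0.15, with spike-in centring. With that centring the 24 h difference was 1.79 and passed (adjusted p = 0.0137 by limma). So did 5825 of the 19783 tested probes, and the median difference of all probes was 0.99.

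CCR2, the monocyte receptor for CCL2, was at 0.79, 1.54 and 1.26 before feeding, at 1.58, 1.73 and 2.34 at 6 h, and at 0.72, 0.85 and 1.69 at 24 h. Its 6 h arrays lay just above those before feeding, by 0.69 ± 0.36 (adjusted p = 0.248). CCR3, the eosinophil receptor for eotaxins, was the exception of the group, with 0.49 to 2.23 at 6 h around 1.51 to 1.91 before feeding and a difference of -0.39 ± 0.40. CXCR1, the other neutrophil receptor for CXCL8, is represented by a probe named only by similarity, which was well above background on 2, 0 and 1 arrays at the 3 times and was not tested.

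**Figure D1:**
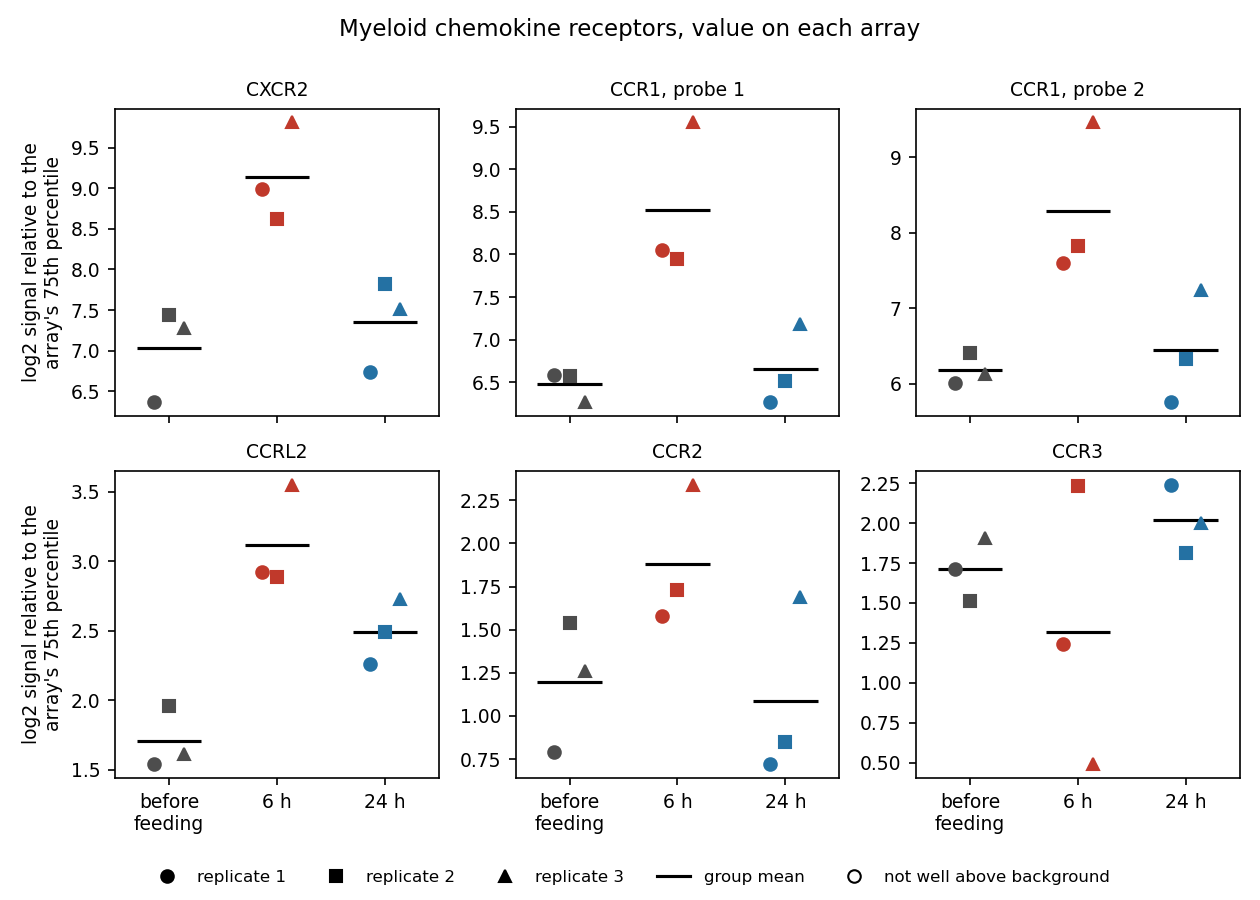
Log2 signal relative to the array's 75th percentile (vertical axis, a scale of its own in each panel) for the 6 tested probes of myeloid chemokine receptors at the 3 times, with 1 point per array and a line at the group mean. The 6 h arrays of CXCR2, CCR1 and CCRL2 lie above all arrays of the other times, and CCR3 overlaps.

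The 6 h differences of CXCR2, both CCR1 probes and CCRL2 are close to the threshold, and 1 array decides on which side they fall. Without 6 h replicate 2 all 4 probes passed, with adjusted p-values of 0.0243 for CXCR2, 0.0253 and 0.0387 for CCR1 and 0.0253 for CCRL2 by limma. Leaving out that array called 2396 of the 19783 tested probes at 6 h, so the passes are not particular to these receptors. The differences of CXCR2 and of the first CCR1 probe between 24 h and 6 h then passed too, at -2.04 (adjusted p = 0.0367) and -2.14 (adjusted p = 0.0342), beside 1767 of all tested probes. The 4 probes also passed at 6 h with spike-in centring and with the replicate number as a block, at adjusted p-values of 0.0368 to 0.0443. Those settings called 616 and 620 of all tested probes. Over the other alternatives the 4 probes did not pass, and adjusted p-values ran up to 0.234.

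Markers of the same cells had higher values on the same arrays, without passing the threshold. The 4 monocyte markers tested (CD14, CD163, LYZ and LGALS3) were 1.63 to 2.56 higher at 6 h, and the 4 neutrophil markers outside the chemokine family (LTF, MMP9, NCF1 and PGLYRP1) were 0.96 to 4.50 higher. Array by array at 6 h, the mean of the neutrophil list, which includes CXCR2, was 2.25, 1.28 and 3.22 above its mean before feeding, and the monocyte list was 1.87, 1.39 and 3.1 above. The mean of the 5 myeloid receptors on the same arrays was 0.93, 1.06 and 1.52 above. The third array was highest in all 3 lists. At 24 h the lists were at 0.52, 0.74 and 0.24 for neutrophils and 0.38, 0.65 and 1.84 for monocytes, beside 0.02, 0.27 and 0.60 for the myeloid receptors. The part of these markers in the receptor values was not tested, and in whole blood a change in the share of a cell type cannot be told apart from a change of RNA per cell.

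None of the 6 lymphocyte receptors tested was apart from its values before feeding at 6 h. Of all tested probes 16% were apart above and 10.6% below, so a count of 0 among 6 is near that share. Of the 5 above background on all 9 arrays, 4 had lower values at 6 h and 5 at 24 h, with medians of -0.15 and -0.41. With spike-in centring the 24 h count turned, with all 5 at higher values, as were 96.8% of all tested probes, so no direction at 24 h is given for these receptors as a group. CCR7, which takes naive and central memory T cells into lymph nodes along CCL19 and CCL21, was at 5.88, 6.41 and 5.70 before feeding. It was at 5.71, 5.40 and 4.57 at 6 h and at 5.40, 5.06 and 4.56 at 24 h. All 24 h arrays lay below all arrays before feeding, and 1 array at 6 h overlapped. The differences were -0.76 ± 0.37 at 6 h (adjusted p = 0.221) and -0.99 ± 0.37 at 24 h (adjusted p = 0.301). With spike-in centring, which raised the median of all probes at 24 h to 0.99, the 24 h difference of CCR7 was 0.02.

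CCR9, the gut-homing receptor for CCL25, was at 1.21, 1.96 and 1.33 before feeding, at 1.52, 1.51 and 0.73 at 6 h, and at 0.93, 1.13 and 0.07 at 24 h. The 24 h arrays were apart below those before feeding, by -0.79 ± 0.37 (adjusted p = 0.378), which became 0.22 with spike-in centring. CXCR6, the receptor for CXCL16, was near background at -2.82, -2.50 and -2.12, then -3.48, -2.52 and -2.47, then -2.13, -1.88 and -2.42. It was well above background on 2, 1 and 3 arrays, and its 24 h arrays were apart above those at 6 h, by 0.68 ± 0.34 (adjusted p = 0.278), or 0.14 with normexp and quantile normalization and 1.46 with spike-in centring. CXCR3, the receptor for CXCL9 and CXCL10, CCR10 and CCR4 overlapped in every comparison, with differences between -0.58 and 0.29. CCR4 had the widest spread of the lymphoid receptors, with an SD of 2.30 at 24 h, where 1 array was at -0.89 and the others at 3.08 and 3.13. CCR6 was not well above background on any array.

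The mean of 7 T cell markers, relative to its mean before feeding, was at -0.85, -0.28 and -1.5 on the 6 h arrays and at -0.10, -0.11 and -0.11 at 24 h. In the values given above, CCR7 and CCR9 had their lowest group means at 24 h, but this depended on the scaling. Between 24 h and 6 h CCR7 differed by -0.22, and by -0.11 with median centring. The sign turned with quantile normalization (0.21), normexp and quantile normalization (0.20), the authors' series-wide values (0.22) and spike-in centring (0.55). With spike-in centring CCR9 at 24 h was 0.22 above its mean before feeding. The part of the T cell markers in these receptor values was not tested.

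CXCR4, the receptor for CXCL12 that holds neutrophils and progenitors in the bone marrow and is found on most blood leukocytes, had a different time course from the myeloid receptors. It was at 2.97, 2.15 and 2.71 before feeding, at 3.12, 4.0 and 3.30 at 6 h, and at 3.19, 3.83 and 4.20 at 24 h. Both later times were apart above the first and overlapped each other. The differences were 0.86 ± 0.37 at 6 h (1.82-fold, adjusted p = 0.176), 1.13 ± 0.37 at 24 h (2.19-fold, adjusted p = 0.263) and 0.27 ± 0.37 between them. The 24 h difference was positive in every alternative run. It passed only with spike-in centring (2.13, adjusted p = 0.0219 by limma), as did 5825 of the 19783 tested probes.

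XCR1, the receptor for lymphotactin on cross-presenting dendritic cells, was at 0.59, 2.32 and 1.08 before feeding, at 2.83, 2.26 and 1.89 at 6 h, and at 3.03, 2.34 and 0.45 at 24 h. Its difference of 1.00 ± 0.64 at 6 h lies within that spread. The atypical receptor ACKR1, the Duffy antigen of red cells and endothelium, overlapped throughout, with differences between -0.08 and 0.44, and ACKR4 was not well above background on any array.

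**Figure D2:**
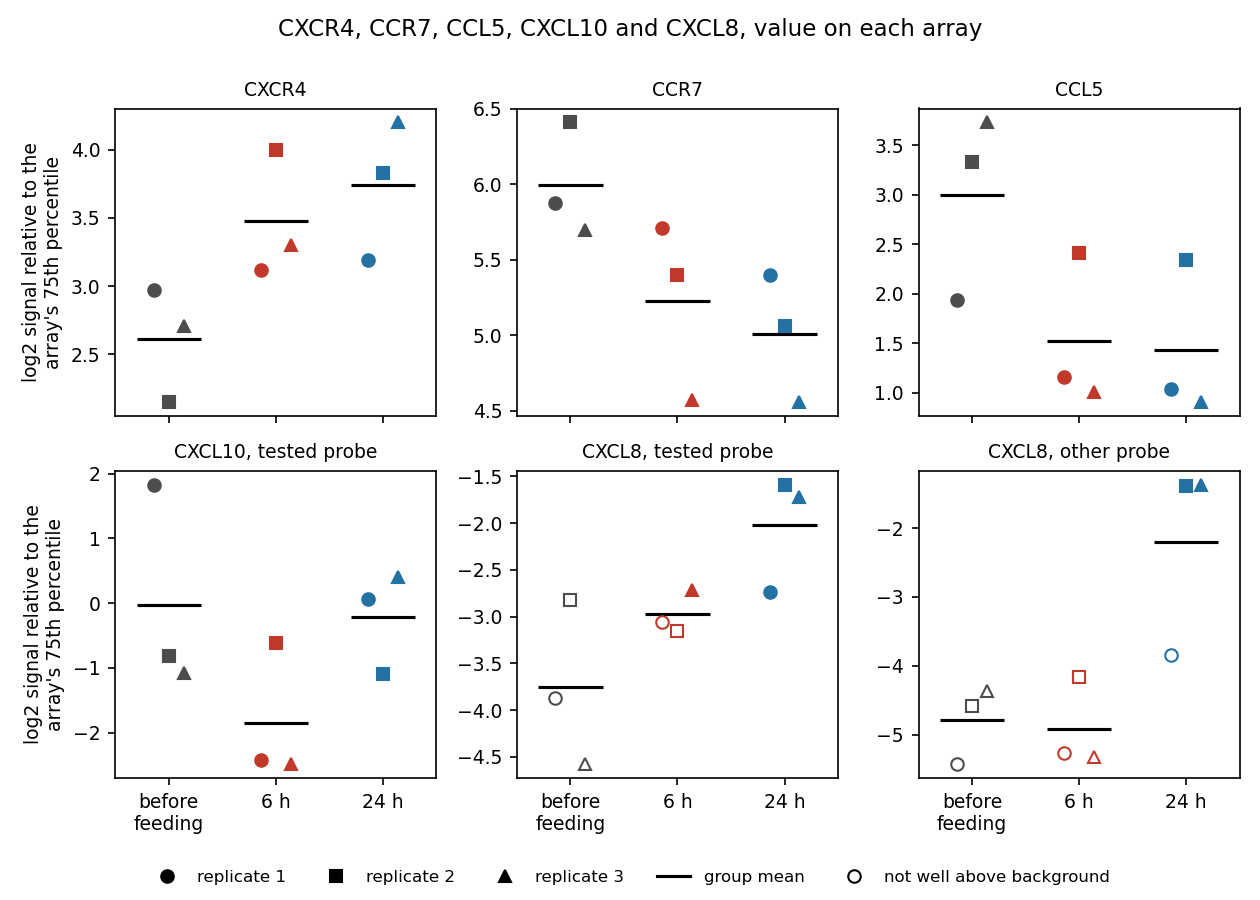
Log2 signal relative to the array's 75th percentile for CXCR4, CCR7, CCL5, CXCL10 and both CXCL8 probes at the 3 times (vertical axes differ between panels). Points are arrays, lines are group means and open points were not well above background. CXCR4 is apart above its values before feeding at both later times, CCR7 is apart below them at 24 h (a difference of -0.99, or 0.02 with spike-in centring), and CXCL8 is well above background mainly at 24 h.

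Among the ligands, CCL5 (RANTES), made by T and NK cells and stored in platelets, had lower mean values at both later times. Its tested probe was at 1.94, 3.33 and 3.73 before feeding, at 1.16, 2.41 and 1.01 at 6 h, and at 1.04, 2.34 and 0.91 at 24 h. The first array before feeding was lower than the second array of each later time, so the groups overlapped. The differences were -1.48 ± 0.56 at 6 h (2.78-fold lower, adjusted p = 0.148) and -1.57 ± 0.56 at 24 h (2.97-fold lower, adjusted p = 0.288), with -0.09 ± 0.56 between 24 h and 6 h. With spike-in centring the 24 h difference was -0.57 (adjusted p = 0.385 by limma). The second CCL5 probe was well above background on 1 array only, before feeding, and followed the first over the 9 arrays with r = 0.89.

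NK and cytotoxic markers (KLRK1, GNLY and PRF1) differed by -1.98 to -0.49 at 6 h and by -1.02 to -0.03 at 24 h. Their mean on the 3 arrays before feeding was at -0.67, 0.01 and 0.66 around its average, lowest and highest on the same arrays as CCL5. The part of these markers in the CCL5 values was not tested.

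CXCL10, an interferon-induced attractant of T and NK cells, was at 1.83, -0.82 and -1.08 before feeding, at -2.43, -0.62 and -2.49 at 6 h, and at 0.07, -1.10 and 0.41 at 24 h on its tested probe. The groups overlapped in every comparison, and the spread before feeding, an SD of 1.61, came from 1 high array. The difference at 6 h was -1.83 ± 0.77 (adjusted p = 0.176), and without that array, replicate 1 before feeding, it was -0.90. Between 24 h and 6 h it was 1.64 ± 0.77 (adjusted p = 0.249). With normexp and quantile normalization these differences were -0.85 and 0.65. The other CXCL10 probe, which the array assigns to the same transcript, was not well above background on any array. CXCL9, a related interferon-induced ligand, was not above background on any array either.

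CXCL8 (interleukin-8), the main attractant of neutrophils, lay near background. Its tested probe was at -3.87, -2.82 and -4.58 before feeding, at -3.06, -3.15 and -2.72 at 6 h, and at -2.74, -1.59 and -1.72 at 24 h. It was well above background on no array before feeding, on 1 at 6 h and on 3 at 24 h. The 24 h arrays were also the brighter ones (75th percentile 6.77 to 7.69, against 5.79 to 6.56). The part of that brightness in the detection was not tested. The 24 h arrays lay above all arrays before feeding, by a fitted 1.74 ± 0.46 (adjusted p = 0.231). The probe entered the test only through its 24 h arrays, so the filter favoured this separation. The 24 h difference was 0.37 with normexp and quantile normalization, and 2.75 with spike-in centring, where it passed (adjusted p = 0.0112 by limma). That centring called 5825 of the 19783 tested probes. The mean of the 24 h arrays was 1.74-fold above the floor before feeding. The floor on each array is its lowest signal well above background, or the probe itself if brighter. This ratio carries no error and holds for this scaling only, so it is not a lower limit. The other CXCL8 probe, which was not tested, was at -5.43, -4.58 and -4.36, then at -5.27, -4.17 and -5.33, then at -3.85, -1.39 and -1.37. It was well above background on 2 of the 24 h arrays. The mean of all 3 of its 24 h arrays, the undetected one included, was 1.53-fold above the floor before feeding. Its receptor CXCR2 was highest at 6 h, when CXCL8 was above background on 1 array by one probe and on none by the other.

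CX3CL1 (fractalkine), a membrane-bound ligand of monocytes and NK cells, had a similar late signal near background, at -4.73, -4.56 and -3.85 before feeding, -4.13, -2.64 and -2.73 at 6 h, and -2.79, -2.59 and -2.87 at 24 h. It was well above background on 0, 1 and 3 arrays, the 3 being the brighter 24 h arrays. The fitted difference at 24 h was 1.63 ± 0.41 (adjusted p = 0.222). As with CXCL8, the probe was tested only because its 24 h arrays were above background, which favours such a difference. The 24 h difference was 0.24 with normexp and quantile normalization, and 2.64 with spike-in centring. In the latter it passed (adjusted p = 0.0121 by limma), as did 5825 of the 19783 tested probes. The mean of the 24 h arrays was 1.04-fold above the floor before feeding, again a ratio without an error. One probe of the neutrophil attractant CXCL2 was well above background on 2 arrays at 24 h and on none earlier, and was not tested. CCL2, the main monocyte attractant, was not well above background on any of the 9 arrays by any of its 3 probes, whose values ran from -6.26 to -2.91.

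CCL3L1, of the CCL3 group made by activated monocytes and lymphocytes, was at 0.25, 1.17 and 1.21 before feeding, at 1.96, 1.28 and 2.36 at 6 h, and at 1.04, 1.41 and 1.58 at 24 h. Its 6 h arrays were just apart above those before feeding, by 0.99 ± 0.37 (adjusted p = 0.144). CCL4, of the same group, overlapped in every comparison, with differences of -0.32 to 0.17. The porcine genes of this group are similar in sequence, and which of them each probe detects was not tested.

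CXCL16, a membrane-bound ligand of macrophages and dendritic cells for CXCR6, had 2 tested probes. The first was at 3.68, 4.55 and 4.11 before feeding, at 4.67, 4.47 and 5.83 at 6 h, and at 3.59, 4.09 and 3.65 at 24 h. Its 24 h arrays were apart below those at 6 h, by -1.21 ± 0.39 (adjusted p = 0.136), or -0.43 with spike-in centring, and its 6 h difference was 0.88 ± 0.39. The second probe gave 0.86 ± 0.38 at 6 h and -0.52 ± 0.38 between 24 h and 6 h, and the last of its probes was not above background.

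The tested probes of CCL19, the lymph node ligand of CCR7, disagreed, with r = -0.15 over the 9 arrays and no shared run longer than 5 bases. The second was at 3.44, 3.70 and 3.08 before feeding, at 3.1, 2.57 and 3.15 at 6 h, and at 2.67, 2.51 and 2.34 at 24 h, apart below the first time by -0.90 ± 0.28 (adjusted p = 0.258), or 0.10 with spike-in centring. The first differed by 0.28 ± 0.34 at 24 h with overlap. A direction for CCL19 is therefore not given. CCL27, a skin ligand of CCR10, was at -2.82, -2.01 and -2.61 before feeding, at -2.71, -2.66 and -2.47 at 6 h, and at -2.87, -2.83 and -3.72 at 24 h. It was well above background on 3, 2 and 2 arrays, and its 24 h arrays were apart below both earlier times, by -0.66 ± 0.33 (adjusted p = 0.405) and -0.53 ± 0.33 (adjusted p = 0.380), which became 0.35 and 0.25 with spike-in centring.

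The platelet chemokines PF4 and PPBP overlapped in every comparison. PF4 differed by 0.36 ± 0.53 and 0.47 ± 0.53 at 6 h and 24 h, and the first PPBP probe by -0.01 ± 0.50 and -0.20 ± 0.50. The second PPBP probe differed by -0.13 ± 0.39 and 0.62 ± 0.39, so the PPBP probes had opposite signs at 24 h. CCL8 and CCL25 also overlapped throughout, with differences between -0.85 and 0.81. CCL20, CCL21 and CXCL17 were above background on 4, 2 and 1 arrays and not tested. CCL26, CCL28, CXCL12, CXCL14 and the pig neutrophil attractant AMCF-II stayed at background on all arrays. In the chemokine-like factor family, CMTM6, a membrane protein that keeps PD-L1 at the cell surface, was apart above its values before feeding at 6 h, by 0.82 ± 0.35 (adjusted p = 0.173). CMTM7 was apart below at 24 h, by -0.46 ± 0.26 (adjusted p = 0.464), and both CMTM2 probes overlapped.

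**Figure D3:**
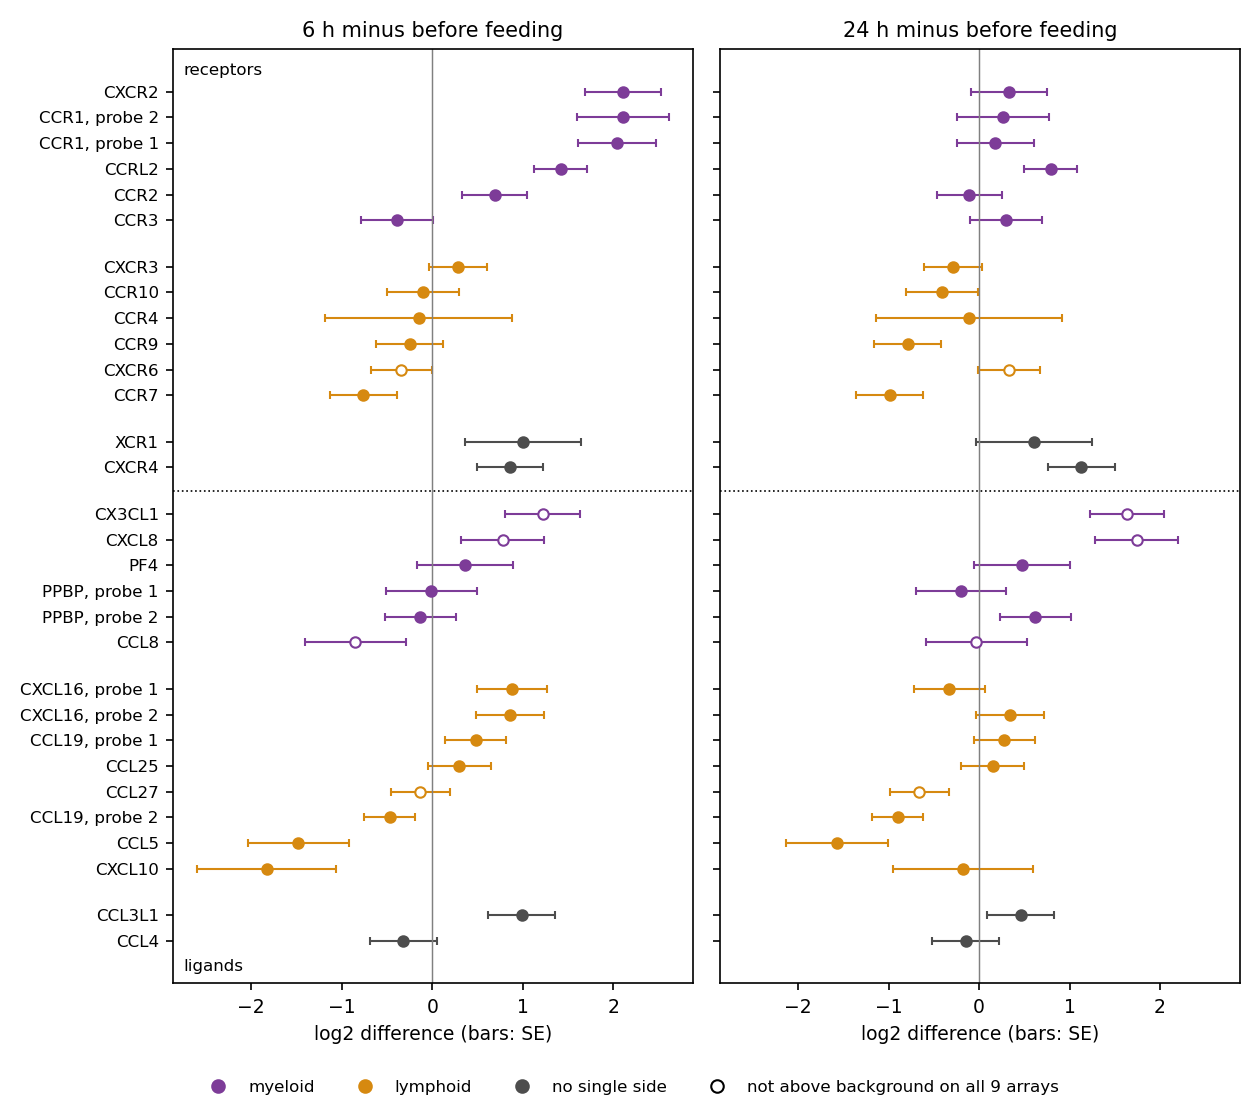
Log2 difference with its SE at 6 h (left) and 24 h (right) against before feeding, for 30 tested probes of ligands and receptors, ordered by role; open points were not above background on all 9 arrays. At 6 h CXCR2, CCR1 and CCRL2 lie furthest above 0 and CXCL10 and CCL5 furthest below, and no probe passed the adjusted threshold. Both panels share the arrays before feeding, and spike-in centring would move the 24 h panel to the right by about the shift of all probes, whose median it placed at 0.99.

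Counted over the 36 tested probes, 8 (22.2%) were apart above their values before feeding at 6 h, against 16% of all tested probes, and 0 were apart below, against 10.6%. At 24 h 4 (11.1%) were apart above, against 7.5%, and 5 (13.9%) below, against 19%. Between 24 h and 6 h 1 (2.8%) was apart above, against 10%, and 6 (16.7%) below, against 16.5%. On the 31 probes above background on all 9 arrays these counts were 8 and 0, 2 and 4, and 0 and 5. The share over all probes with that filter was not counted, so these have no background of their own. In all 3 comparisons the counts over the 36 tested probes are within a few probes of the background. The 8 at 6 h include both overlapping CCR1 probes, and the comparisons share arrays with each other.

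Receptors and ligands were compared by the mean of their tested genes on each array, as differences from the mean before feeding and with no test, since the genes were chosen with results known. The 14 receptors were at -0.27, 0.20 and 0.07 before feeding, at 0.31, 0.59 and 0.31 at 6 h, and at 0.14, 0.29 and -0.23 at 24 h. The 13 ligands were at -0.19, 0.31 and -0.12, then at -0.32, 0.15 and 0.04, then at -0.04, 0.27 and -0.14. The receptor mean was apart above its first values at 6 h only, and the ligand mean overlapped throughout. Receptors minus ligands differed by 0.44 at 6 h and 0.03 at 24 h from before feeding, beside a spread between arrays of 0.16 (pooled SD). These values were 0.63 and 0.30 on genes above background on all 9 arrays, and 0.24 and 0.10 with no filter. Of the tested genes, 7 of 14 receptors and 6 of 13 ligands had higher values at 6 h, with medians of 0.09 and -0.01. Over all tested probes the share was 52.6% and the median 0.05. Among genes above background on all 9 arrays, 7 of 13 receptors and 4 of 9 ligands did, with medians of 0.29 and -0.01. Of all probes with that filter, 8181 of 15803 did. With spike-in centring the counts at 6 h were 9 of 13 and 5 of 9, beside 65.1% of all tested probes.

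By cell lineage, the 10 myeloid genes were at -0.21, 0.33 and -0.13 before feeding, at 0.36, 0.89 and 0.95 at 6 h and at 0.30, 0.63 and 0.61 at 24 h. The 12 lymphoid genes were at -0.27, 0.29 and -0.02, then at -0.40, -0.08 and -0.53, then at -0.27, -0.16 and -1.01. Myeloid minus lymphoid genes differed by 1.07 at 6 h and 0.99 at 24 h from before feeding, and by -0.08 between 24 h and 6 h, beside a spread between arrays of 0.39. On genes above background on all 9 arrays, which leaves out CXCL8 and CX3CL1, the values were 1.24, 0.79 and -0.45, and with no filter 0.65, 0.78 and 0.13. Among genes above background on all 9 arrays, 5 of 7 myeloid and 3 of 10 lymphoid genes had higher values at 6 h. At 24 h the counts were 5 of 7 and 1 of 10. Of the 15803 probes on the array with that filter, 8181 had higher values at 6 h and 6967 at 24 h. The shares of all tested probes were 52.6% and 49.1%. With spike-in centring the counts were 6 of 7 and 5 of 10 at 6 h, beside 65.1%, and 7 of 7 and 9 of 10 at 24 h, beside 96.8%, so the direction of the lymphoid genes at 24 h turned with the scaling. Within the myeloid genes the receptors had a mean of 1.17 and the ligands of 0.30 at 6 h, and the receptors of 0.30 and the ligands of 0.72 at 24 h. The 24 h ligand mean includes CXCL8 and CX3CL1, which were tested only because they were above background at 24 h. The myeloid ligands above background on all 9 arrays are PF4 and PPBP, with a median of 0.13 at 24 h.

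**Figure D4:**
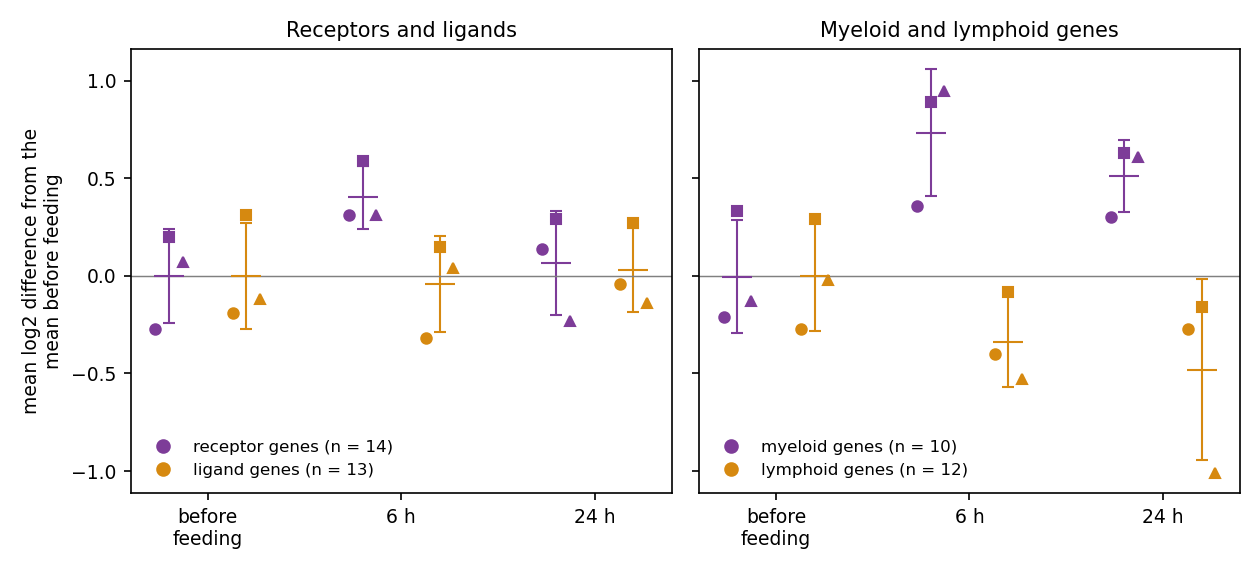
Mean log2 difference from the mean before feeding over the tested genes of each class, on each array, with the group mean and SD (n = 3 arrays). Receptors and ligands separate at 6 h (group means 0.40 and -0.04, median receptor difference 0.09) and overlap at 24 h. Myeloid and lymphoid genes separate at both times (0.74 and -0.34 at 6 h, 0.51 and -0.48 at 24 h). The 24 h ligand and myeloid means include CXCL8 and CX3CL1, tested only through 24 h; on genes above background on all 9 arrays, myeloid minus lymphoid at 24 h was 0.79 and receptors minus ligands 0.30.

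Downstream of the receptors, Gi proteins, phosphoinositide 3-kinase gamma, JAK and STAT proteins and NF-kB carry the signal, and integrins and selectins carry out adhesion. Of 82 such genes in the list, 28 had a named probe and 25 were tested, and none passed the threshold by limma in any comparison. At 6 h 22 had higher and 3 lower values, 17 and 2 of them at an unadjusted p under 0.05, beside 25.5% of all probes, with a median of 1.05 against 0.05 over all probes. NFKBIA, the inhibitor of NF-kB, differed by 2.19 ± 0.47 (adjusted p = 0.0754). RGS2, a brake on G protein signalling, differed by 1.87 ± 0.61. STAT3 differed by 1.84 ± 0.47 and STAT5B by 1.65 ± 0.51. In the other direction, PRKACB, a catalytic subunit of protein kinase A, differed by -1.16 ± 0.31 (adjusted p = 0.0849), and DPP4 (CD26), the T cell surface peptidase that trims and inactivates several chemokines, by -0.89 ± 0.39.

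At 24 h 15 had higher and 10 lower values, with a median of 0.13 against -0.01 over all probes. Of these, 1 in each direction had an unadjusted p under 0.05, beside 13.9% of all probes: DPP4 at -1.04 ± 0.39 and RGS1, another brake on chemokine receptor signalling, at 0.84 ± 0.36. Between 24 h and 6 h 23 of 25 had lower values, beside 56.3% of all probes, and 15 of them had an unadjusted p under 0.05, beside 21.6%. The median of the 25 was -1.0 against -0.09 over all probes, and spike-in centring moved the median of all probes to 0.69. The lower values were led by NFKBIA at -1.67 ± 0.47, the integrin chain ITGAL at -1.50 ± 0.46, STAT3 at -1.40 ± 0.47 and the G protein subunit GNAI2 at -1.31 ± 0.44. RGS1 was higher, by 1.06 ± 0.36 (adjusted p = 0.144), and 1 other gene had a higher value without an unadjusted p under 0.05. The pathway genes on the 6 h arrays were at 0.78, 0.47 and 1.48, in the same order of arrays as the neutrophil and monocyte lists, whose part in these values was not tested.

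The genes whose values over the 9 arrays were most like those of a member were found among 1163 named genes with a tested probe. The correlations include the 3 times and share the arrays and their scaling, so they are descriptions. CXCR4 was most like PMAIP1 (r = 0.915), FUT1 (0.914) and PLAU (0.901). CCR7 was most like HPS5 (0.929), TMEM57 (0.925) and CACNB4 (0.894). CCL5 was most like LOC396700 (0.969), FOXN3 (0.957) and RPL18 (0.937). CXCL10 was most like PPP1CC (0.945), CRYZL1 (0.918) and NDUFC1 (0.910). CXCL8 had the weakest matches, SERPINA6 (0.777), ATP4A (0.730) and EGF (0.709).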

How the data were processed

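Cy3-labelled RNA from 9 whole blood samples (PAXgene tubes) was hybridised to 1 porcine Agilent array each. Per the file headers, the deposited processed signal is a background-subtracted intensity that is not normalized between arrays. Feature Extraction is version 10.5.1.1 in those headers but 9.5.3.1 in the submitters' processing notes. The authors' deposited series-wide values, an alternative here, were read as linear intensity from 1 shared maximum and column medians of 11.37 to 11.44 and how they were made is not stated in the sources at hand.

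Control and outlier spots were left out, spots of a probe averaged and 7 of 43603 probes dropped. Values were log2 processed signal minus the array's 75th percentile. The 19783 probes that cleared background on each array of some group entered 1 limma fit (limma 3.58.1 in R 4.3.3) of the 9 arrays by group. On simulated data for 6 h against before feeding over 19783 probes, limma called 57.5% of 200 probes given a log2 change of 2. Python 3.11.15, pandas 2.3.3 and matplotlib 3.10.9 were also used.

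Symbols came from the files and RefSeq accessions (Sscrofa11.1 names) for 2880 probes (6.61%), so lists are only partly measured. Positions were not analysed here, and the values of 1 gene, which stays in the counts and class means, are not reported here. Of the 6 members of the series description, CXCL8, CXCL10, CCL5, CXCR4 and CCR7 are given on every array by their tested probes. CCL2 had no tested probe and is given by its range. Other ligands and receptors are given on every array where a difference reached 1 or groups did not overlap. For each tested member of the 6, the 3 named genes most like it are given. Pathway genes named are up to 4 per direction with the largest difference among those at an unadjusted p under 0.05. The members and lists were chosen with earlier results of these data known. Classes use the tested probe with the highest mean. Same-numbered arrays' deviations correlated at -0.199 to 0.642 (median 0.115), and differently numbered ones at -0.625 to 0.431 (median -0.09). So few correlations cannot settle whether the numbers mark pairs. The main fit did not take them as pairs, and taking them as a block called 620 probes at 6 h against 5.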

Additional observations from a re-analysis of the deposited data

How the results depend on the processing

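At 6 h against before feeding, 5 of all probes were called, and 8 with quantile normalization or the series-wide values, 616 with spike-in centring and 0 with normexp and quantile, no filter, only probes above background on all 9 arrays, the trended robust fit or only the 6 arrays compared. Leaving out 1 array gave 0 to 2396, the highest without 6 h replicate 2. At 24 h against before feeding the count of 0 became 6 with quantile normalization or the series-wide values and 5825 with spike-in centring, and between 24 h and 6 h it was 0 to 1767 on leaving out 1 array, again highest without 6 h replicate 2. Of the chemokine family, 4 probes were called at 6 h and 17 at 24 h with spike-in centring; leaving out 1 array gave 0 to 4 at 6 h and 0 to 2 between 24 h and 6 h. The replicate number taken as a block gave 620 probes at 6 h and 4 of the family.

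Receptors minus ligands at 6 h was 0.24 with no filter and 0.63 on probes above background on all 9 arrays. At 24 h it was 0.25 with normexp and quantile and 0.30 on the latter probes, and between 24 h and 6 h -0.19 with normexp and quantile and -0.14 with no filter. Myeloid minus lymphoid at 6 h was 0.65 with no filter. Of 656 alternative values for single members, 618 kept their sign and their side of the threshold, 18 passed it and 20 changed sign. With spike-in centring the sign changed for CCL19 (0.10), CCL27 (0.35), CCR9 (0.22), CXCL10 (0.82) and CCR7 (0.02) at 24 h, and between 24 h and 6 h for CCL27 (0.25), CCL5 (0.69), CCR7 (0.55) and CCRL2 (0.15). Between 24 h and 6 h CCL5 was at 0.02 with median centring and -0.55 to 0.35 on leaving out 1 array. CCR7 was there at 0.21 with quantile normalization, 0.20 with normexp and quantile, 0.22 with the series-wide values and -0.55 to 0.02 on leaving out 1 array. CXCL10 at 24 h ran from -0.71 to 0.74 on leaving out 1 array. The causes were not tested. Signal over background limits CXCL8, CX3CL1, CCL8, CCL27 and CXCR6, and 3 arrays per time limit every value.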
